A study of Mus musculus with 6 samples.

Results

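The 8 genes Ptgs2, Nos2, Il1b, Il6, Il10, Stat3, Nfkb1 and Socs3, mediators of inflammation and their signalling genes, were followed through captured bisulfite sequencing of mouse colon epithelium. Members were the captured regions that overlap a window around each gene (the gene plus about 3 kb on either side, build mm9), and 68 of the 209687 regions of the series did so: 20 at Stat3, 19 at Nfkb1, 13 at Socs3, 9 at Nos2, 3 at Il6, 2 at Il1b and 1 each at Ptgs2 and Il10. A region is a short stretch holding several CpGs, the C-G pairs at which mammalian DNA is methylated, and its methylation level is the share of methylated calls among all methylation calls in it, in percent. All 6 samples were colon epithelium of inbred C57BL/6 mice aged 18 weeks. The 2 control samples carry no treatment in the labels, the 2 AOM/DSS samples come from animals given azoxymethane (AOM, a colon carcinogen) and dextran sulfate sodium (DSS, which inflames the colon), and the 2 AOM/DSS plus curcumin samples from animals given both and also curcumin, a polyphenol of turmeric. The sources used here give neither doses nor schedules. The labels' protocol has tumours cut away and the mucosa scraped off, so the DNA is that of the remaining epithelium and of any other cells in the scrapings. Markers of the epithelium were not analysed here, because no annotation of mm9 was at hand, and a change in the mix of cells cannot be told apart from a change within cells.

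These genes form one signalling circuit. Il1b and Il6 encode pro-inflammatory cytokines and Il10 encodes an anti-inflammatory one. Nfkb1 encodes a subunit of NF-kappaB, the transcription factor that carries signals of interleukin-1 receptors and microbial sensors to the nucleus, and Stat3 encodes the transcription factor that carries those of Il6 and Il10. Ptgs2, the inducible cyclooxygenase of prostaglandin synthesis, and Nos2, the inducible nitric oxide synthase, are effector enzymes switched on by such signals, and Socs3 is a Stat3 target whose product shuts cytokine receptors down again. In the colon this circuit is known for its part in colitis and in tumours that follow colitis. Methylated CpGs near a gene start are generally found at silent genes, and starts rich in CpGs are usually unmethylated.

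The genes differ in how many CpGs their starts offer, which the promoter sequences show. RefSeq's promoter table (build GRCm38.p6, 250 bases before to 50 after a gene's start, 32851 promoters) held 5 of the 8 genes. Nos2, Il10 and Nfkb1 were not among them. Socs3 had 31 CG pairs in its 300 bases, and 10.6% of all promoters had as many or more. Ptgs2 had 16 and Stat3 15, against a median of 7 over all promoters. Il6 and Il1b had 3 each, and 31.4% of all promoters had as few or fewer. The stretches before the start of Ptgs2 (chr1:150099781-150100030, plus strand), Stat3 (chr11:100939595-100939790, minus strand), Il6 (chr5:30012864-30013113, plus strand) and Il1b (chr2:129371165-129371389, minus strand) are shown because they set a CpG-rich pair beside a CpG-poor pair. They are written 5′ to 3′ with CG pairs in capitals, and these coordinates are those of GRCm38.p6, not of the mm9 regions.
Ptgs2: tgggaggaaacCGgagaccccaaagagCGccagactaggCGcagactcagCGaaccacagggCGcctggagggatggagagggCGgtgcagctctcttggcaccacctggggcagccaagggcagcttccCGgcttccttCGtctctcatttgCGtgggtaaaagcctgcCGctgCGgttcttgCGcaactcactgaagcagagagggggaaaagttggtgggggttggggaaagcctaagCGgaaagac
Stat3: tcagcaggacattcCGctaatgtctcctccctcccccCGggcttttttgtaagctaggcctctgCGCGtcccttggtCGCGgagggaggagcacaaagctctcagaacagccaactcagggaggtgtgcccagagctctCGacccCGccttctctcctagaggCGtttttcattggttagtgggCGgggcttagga
Il6: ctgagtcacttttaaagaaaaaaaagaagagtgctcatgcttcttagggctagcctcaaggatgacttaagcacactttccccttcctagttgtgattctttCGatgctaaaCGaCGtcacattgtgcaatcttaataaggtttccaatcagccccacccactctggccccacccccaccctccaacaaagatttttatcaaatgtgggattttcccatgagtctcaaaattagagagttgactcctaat
Il1b: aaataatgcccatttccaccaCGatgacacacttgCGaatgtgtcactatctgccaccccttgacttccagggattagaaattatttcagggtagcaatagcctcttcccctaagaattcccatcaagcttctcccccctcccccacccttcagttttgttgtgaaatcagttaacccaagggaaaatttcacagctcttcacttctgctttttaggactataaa
The 3 CG pairs of the Il6 stretch have the number and spacing of a captured region, which holds 3 CpGs with 13 bases between its start and end (chromosome 5, 30339506 to 30339519, mm9). In the RefSeq sequence the first of these pairs lies 148 bases before the start. Such a spacing occurs somewhere in 22.2% of all promoters, so the match alone does not place the region. The last of the 3 pairs falls within the letters ACGTCA, the core of a cAMP response element. On either strand these letters were found in 7.51% of all promoters and also in that of Ptgs2, though not within the stretch printed above.

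Of the 68 regions, 64 had values in all 6 samples and could be compared, as 179922 of all 209687 regions could. The other 4 lie in Nos2, Il10, Stat3 and Nfkb1 and lacked a value in at least 1 sample. Over the whole series the samples held 24682973 to 30727568 calls, and the member regions had a median of 85 to 114.5 calls per sample, with 20 to 540 calls behind a single value. The labels do not tie the 2 samples of a group to different animals. A p-value below sets a group difference against a spread estimated from these samples over all regions, which may not be the spread between animals. All tests on single regions below are edgeR's quasi-likelihood test on methylated and unmethylated calls, fitted over all 179922 regions with Benjamini-Hochberg adjustment over all of them. A region counted as called at an adjusted p under 0.05 with group means at least 10 percentage points apart.

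**Figure D1:**
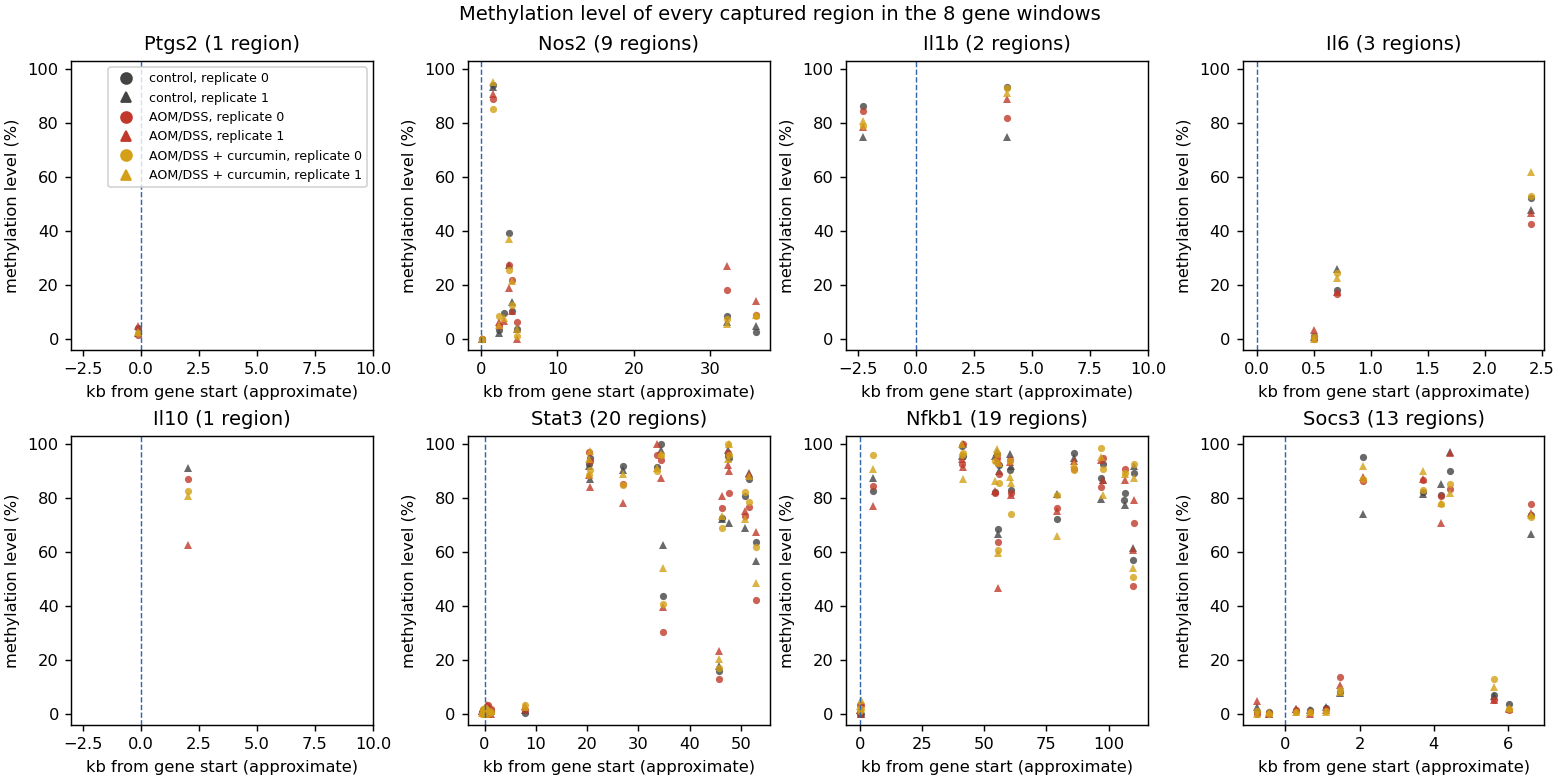
Methylation level (vertical axes, percent) of every captured region in the 8 gene windows against the approximate distance from the gene start in kb, with the start (dashed line) taken as 3 kb inside the window; a point is 1 sample, coloured by group and shaped by replicate. Regions beside the starts of Ptgs2, Nos2, Stat3 and Nfkb1 sit at 0% to 5% in all samples, 1 of 6 at Socs3 reaches 13.7%, and those along Nfkb1 and most of those along Stat3 sit high.

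Near the starts of 6 of the 8 genes, where captured regions lay, methylation was mostly low in all 3 groups. Since the windows begin about 3 kb before the gene, the start was taken as 3 kb inside the window, and 18 regions with 286 CpGs lay within 1.5 kb of it. The windows exceeded the RefSeq gene lengths (GRCm38.p6) by 5560 to 8211 bases, so distances from the start are approximate. Regions near the 1.5 kb limit may belong on its other side. One left out in this way is a methylated Nos2 region (78735573 to 78735735, mean 91.3%), taken to lie at 1.573 kb. Of these 18, 17 averaged under 10% over the 6 samples. All calls of the 18 regions together were 3.68% ± 0.607 methylated in control (SD, n = 2), 4.01% ± 0.0445 in AOM/DSS and 3.62% ± 0.624 in AOM/DSS plus curcumin, and the 3 groups overlapped.

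Among the effector enzymes, the only Ptgs2 region (chromosome 1, 151946856 to 151947282, 21 CpGs, 187 to 321 calls) stood at 4.07% and 2.17% in the control samples, 1.25% and 4.76% in AOM/DSS and 2.04% and 2.67% with curcumin. The AOM/DSS samples thus lay on either side of the controls, and the group means were 3.12% ± 1.34, 3.00% ± 2.49 and 2.36% ± 0.448 (SD, n = 2). At Nos2 the region beside the start (chromosome 11, 78734104 to 78734136, 3 CpGs) had no methylated call in any sample. Its coverage was thin, at 23 to 60 calls, and 0 of 23 calls allows a level of up to 13.04%, while 0 of 60 allows up to 5%, for counting error only.

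The signalling genes had mostly low starts as well. At Stat3 the 6 regions near the start, with 66 CpGs, ran from 0% to 3.33% in single samples, and their lowest (chromosome 11, 100801353 to 100801559, 7 CpGs) stood at 0.360% and 1.08% in control, 0.837% and 0.990% in AOM/DSS and 0% and 0.426% with curcumin. At Nfkb1 both start regions lay between 0% and 5%. The lower one (chromosome 3, 135354486 to 135354534, 9 CpGs) had no methylated call among 61 and 41 calls in control, stood at 3.33% and 0% in AOM/DSS and at 1.69% and 5% with curcumin, the last of these from 20 calls. At Socs3 the 6 start regions held 160 CpGs and 5 of them averaged under 2%. The lowest (chromosome 11, 117831013 to 117831423, 18 CpGs) stood at 0.690% and 0% in control, 0.503% and 0% in AOM/DSS and 0% and 0.568% with curcumin. The sixth, named after its values were seen, was higher (117829158 to 117829520, 34 CpGs, 422 to 527 calls), at 8.06% and 7.60% in control, 13.7% and 10.8% in AOM/DSS and 8.99% and 8.15% with curcumin. Both of its AOM/DSS samples lay above the other 4, by 4.43 points over control in the means (unadjusted p = 0.0543, edgeR adjusted p = 0.794).

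The cytokine genes differed from one another. At Il6 the region with 3 CpGs described above stood at 1.05% and 0.658% in control, 0% and 3.16% in AOM/DSS and 0.820% and 0% with curcumin (122 to 190 calls). The next one, 189 bases on (30339708 to 30340139, 11 CpGs), was the single start region that averaged above 10% over the 6 samples, at 18.1% and 25.8% in control, 16.7% and 17.5% in AOM/DSS and 24.3% and 22.6% with curcumin. At Il1b no captured region lay within 1.5 kb of the start, and both of its regions were methylated. The lower one (chromosome 2, 129199223 to 129199295, 3 CpGs), before the gene, stood at 86.4% and 75.0% in control, 84.4% and 78.6% in AOM/DSS and 78.8% and 81.0% with curcumin, and the one within the gene (129193031 to 129193093, 4 CpGs) at 93.3% and 75.0%, 82.0% and 88.9%, and 92.9% and 91.2%, in the same order. Control replicate 1 was the lowest sample at both. The only Il10 region (chromosome 1, 132918044 to 132918073, 3 CpGs) was read in 5 samples at 23 to 48 calls: 91.3% in control replicate 1, 87.0% and 62.5% in AOM/DSS and 82.6% and 80.6% with curcumin. Without a value in control replicate 0 it could not enter the comparison.

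More than 1.5 kb from the starts most regions were methylated. Of the 46 compared regions there, 6 (13.0%) averaged under 10%, 9 (19.6%) lay between 10 and 70% and 31 (67.4%) at 70% or more. The 6 low ones were 3 at Nos2, 2 at Socs3 and 1 at Stat3. With the start regions included, the shares over the 64 compared regions were 35.9%, 15.6% and 48.4%, and over all regions of the series they were 36.4%, 32.2% and 31.4%. Of the 18 compared Nfkb1 regions 14 were at 70% or more, and of the 19 at Stat3 9. At Nos2 only 1 of 8 was, the one from 78735573 to 78735735 with 94.2% and 93.3% in control. Averaged over its regions, the control level was 82.4% ± 10.5 at Il1b, 76.8% ± 1.104 at Nfkb1, 48.7% ± 0.999 at Stat3, 33.7% ± 0.949 at Socs3, 24.3% ± 0.720 at Il6, 19.5% ± 0.959 at Nos2 and 3.12% ± 1.34 at Ptgs2 (SD, n = 2). In this order the first pair, Il1b and Nfkb1, overlapped between samples and the others did not. Such averages depend on which parts of a gene were captured.

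**Figure D2:**
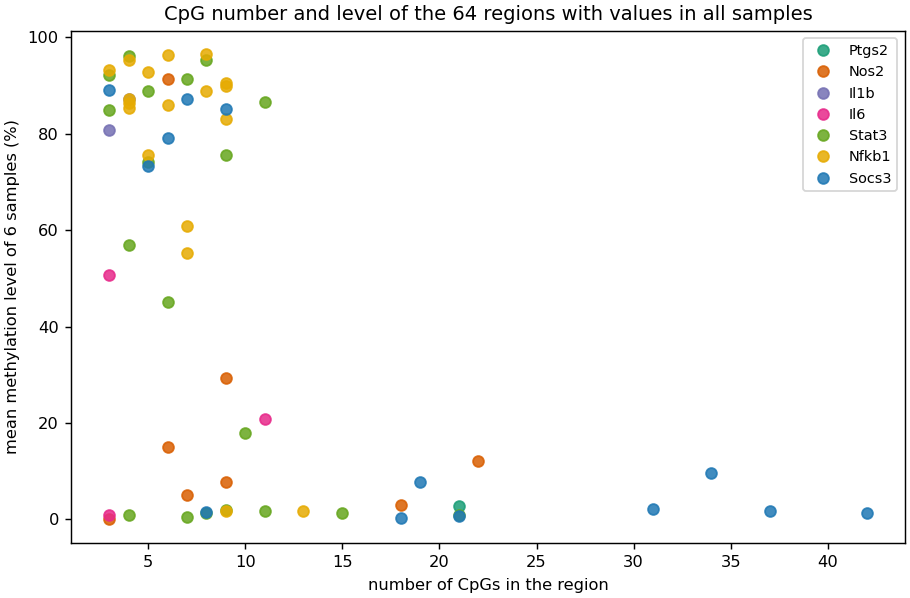
Number of CpGs in a region (horizontal axis) against its mean methylation level over the 6 samples in percent (vertical axis) for the 64 compared regions, coloured by gene. All 12 regions with 15 or more CpGs sit at 12.1% or less, while regions with few CpGs spread over the whole range.

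CpG number went with low methylation, as in the series as a whole. Across the 64 regions, which share the same 6 libraries and lie in clusters along 7 genes, Spearman's rho between CpG number and mean level was -0.448, and over all regions it was -0.451. The 12 members with 15 or more CpGs averaged at most 12.1%, and 11 of them under 10%. Of all 36128 such regions 81.6% averaged under 10%. The member with the highest level among the 12 was the Nos2 region of 22 CpGs described next.

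AOM/DSS was first set against control, the comparison that addresses carcinogen and colitis without curcumin. No member region was called in edgeR's test (0 of 64, where 0.00389% of all regions were called), and the smallest p among the members belonged to a Nos2 region with more methylation after AOM and DSS. At an unadjusted p under 0.05 there were 6 members, 4 higher and 2 lower in AOM/DSS (9.38%, against 6.34% of all regions, of which 2.73% higher and 3.62% lower). Requiring also 10 points left 2, 1 higher at Nos2 and 1 lower at Nfkb1 (3.13%, against 2.82% of all regions, 0.723% higher and 2.1% lower). Limma called 0 members and 0% of all regions, and these 2 were called by Fisher's exact test, which sums the calls of a group and so takes no account of replicate spread (3.13% of members, against 2% of all regions). At its unadjusted p with 10 points that test gave 5 members (7.81%, against 6.17% of all regions). The members' count was thus near that of all regions. It changed when single samples were left out, and the share of all regions in those fits was not counted.

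The Nos2 region (chromosome 11, 78766136 to 78766509, 22 CpGs) lies about 32.1 kb after the gene start, and the gene is 39440 bases long in RefSeq (GRCm38.p6). It stood at 8.58% and 6.18% in control, 18.3% and 27.0% in AOM/DSS and 7.38% and 5.35% with curcumin, from 393 to 443 calls in each sample. Both AOM/DSS samples lay above the other 4 samples, which shared a range of 5.35% to 8.58%. The group means were 7.38% ± 1.70, 22.7% ± 6.18 and 6.36% ± 1.44 (SD, n = 2). AOM/DSS was 15.3 points above control with an unadjusted p of 2.46e-05, which 32 of the 179922 regions undercut, and an edgeR adjusted p of 0.132, so the difference did not pass. The region was already known from these data when the genes were chosen, so its p and rank are no independent support. The difference was 10.9 points without AOM/DSS replicate 1 and 19.7 points without replicate 0, and the edgeR adjusted p over these and the other fits ran from 0.0289 to 0.956.

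The next Nos2 region, 3455 bases further on (78769964 to 78770271, 9 CpGs, 93 to 127 calls), stood at 2.36% and 4.59% in control, 8.80% and 13.98% in AOM/DSS and 8.33% and 9% with curcumin. Here both treated groups lay above control, by 7.91 points in AOM/DSS (unadjusted p = 0.0104, edgeR adjusted p = 0.699). On the other side, 27211 bases away, the region from 78738676 to 78738925 (18 CpGs) stood at 3.61% and 3.70% in control, 6.42% and 0% in AOM/DSS and 1.09% and 3.53% with curcumin, and the AOM/DSS samples lay on either side of the controls. Between it and the start, the regions of the window went in both directions. The one from 78736368 to 78736721 averaged 2.71% ± 0.756 among controls, 5.50% ± 0.845 under AOM/DSS and 6.80% ± 2.33 with curcumin (SD, n = 2). Both treated groups lay above control there. The one from 78737675 to 78738025 averaged 33.3% ± 8.52, 23.1% ± 5.93 and 31.3% ± 8.19 in the same order, with 27.3% in 1 sample each of control and AOM/DSS. Over the 8 compared regions the Nos2 window averaged 19.5% ± 0.959 in control and 21.5% ± 0.804 in AOM/DSS, and pooling all calls of the window, which weights the 22-CpG region most, made the difference 5.56 in place of 1.95 points.

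**Figure D3:**
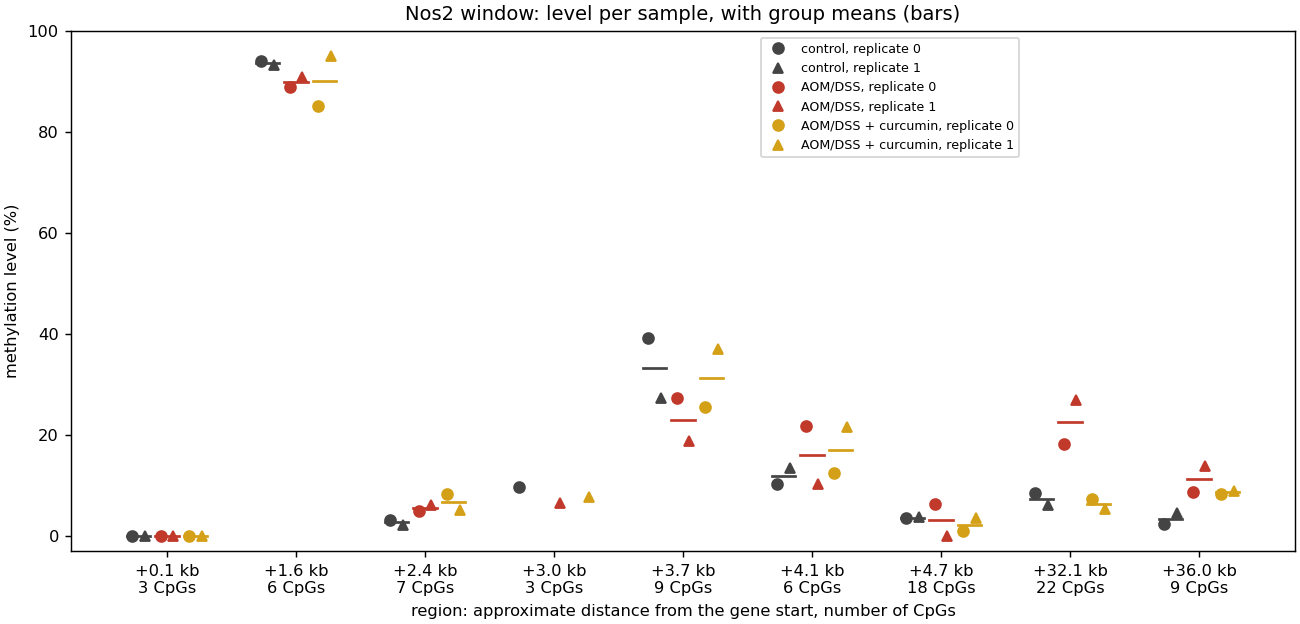
Methylation level in percent (vertical axis) of the 9 captured regions of the Nos2 window, ordered by approximate distance from the gene start and labelled with their number of CpGs; points are samples and bars are group means where both samples have a value. At 32.1 kb both AOM/DSS samples (18.3% and 27.0%) sit above the other 4 samples (5.35% to 8.58%).

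At Nfkb1 the region at the far end of the window, after the gene (chromosome 3, 135244581 to 135244691, 4 CpGs, 56 to 82 calls), stood at 89.2% and 91.8% in control, 70.8% and 79.3% in AOM/DSS and 92.9% and 87.3% with curcumin. Both AOM/DSS samples lay below the other 4, and the difference to control was -15.5 points (unadjusted p = 0.0120, edgeR adjusted p = 0.702). Without AOM/DSS replicate 0 the unadjusted p was 0.0872 and without control replicate 1 it was 0.0638. The region beside it, 179 bases on (135244870 to 135245141, 7 CpGs), stood at 57.0% and 61.4% in control, 47.3% and 60.6% in AOM/DSS and 50.9% and 54.01% with curcumin, and control and AOM/DSS overlapped. Of the 18 compared Nfkb1 regions 12 were lower and 6 higher in AOM/DSS, and the window's average was 76.8% ± 1.104 among controls and 74.4% ± 0.459 under AOM/DSS (SD, n = 2), without overlap. With all calls pooled the samples overlapped, at 77.3% and 80.3% among controls and 76.8% and 77.4% under AOM/DSS.

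At Stat3 the region with the largest difference (chromosome 11, 100766116 to 100766155, 6 CpGs, 35 to 81 calls) stood at 43.5% and 62.5% in control, 30.4% and 39.5% in AOM/DSS and 40.7% and 54.3% with curcumin. The 2 AOM/DSS samples lay below both controls. The difference of -18.1 points missed the unadjusted threshold (unadjusted p = 0.0574, edgeR adjusted p = 0.796). Next to it, 172 bases on, the region from 100766327 to 100766522 (8 CpGs) had means of 99.0% ± 1.40 among controls and 90.9% ± 4.81 under AOM/DSS (SD, n = 2; unadjusted p = 0.00219 and adjusted p = 0.616 in edgeR). This region was chosen after its values were seen. Over the 19 compared Stat3 regions 10 were lower and 9 higher, and the window's average of 48.7% ± 0.999 in control overlapped no AOM/DSS value, at 46.8% ± 1.21, but with all calls pooled the difference was -0.238 in place of -1.87 points.

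At Il6 the region from 30341404 to 30341538 (3 CpGs, 73 to 113 calls) stood at 52.2% and 47.9% in control, 42.7% and 46.5% in AOM/DSS and 52.9% and 61.9% with curcumin, so that both AOM/DSS samples were below the other 4 (a difference of -5.47 points from control; edgeR unadjusted p = 0.469). At Socs3 the largest difference was at the region from 117826669 to 117826816 (6 CpGs, 129 to 226 calls), with 81.1% and 85.3% in control, 80.7% and 70.8% in AOM/DSS and 77.8% and 78.3% with curcumin. Control and AOM/DSS did not overlap, though AOM/DSS replicate 0 lay close to control replicate 0, and the unadjusted p in edgeR was 0.133. Of the 13 Socs3 regions 6 were higher and 7 lower.

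The other 4 regions at an unadjusted p under 0.05, named after their values were seen, differed by less than 10 points. They are the Nos2 and Stat3 regions just given, a start region of Stat3 and a region of Nfkb1. The Stat3 start region (100800308 to 100800534, 11 CpGs, 51 to 99 calls) had no methylated call in either control, stood at 3.06% and 3.33% in AOM/DSS and at 1.33% and 2.33% with curcumin (unadjusted p = 0.0197, edgeR adjusted p = 0.724). The Nfkb1 region (135248357 to 135248578, 6 CpGs, 111 to 142 calls) stood at 81.9% and 77.6% in control, 90.9% and 86.8% in AOM/DSS and 89.2% and 88.8% with curcumin (unadjusted p = 0.0434, edgeR adjusted p = 0.781). At both, the 4 treated samples lay above the 2 controls.

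As a list, the members were set beside all regions by their medians. The members' median difference between AOM/DSS and control was -0.105 points, and that of all regions was -0.264. Among regions at 70% or more it was -1.94 points over 31 members and -1.72 over all 56451 such regions, and among those under 10% it was 0.0533 and 0.196 points. Between 10 and 70% the 10 members had a median of -5.18 points, and all 57897 regions of that class -1.02. Groups did not overlap at 28 members (43.8%, against 35.7% of all regions), 10 of them higher and 18 lower in AOM/DSS (15.6% and 28.1%, against 14.8% and 20.8%).

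**Figure D4:**
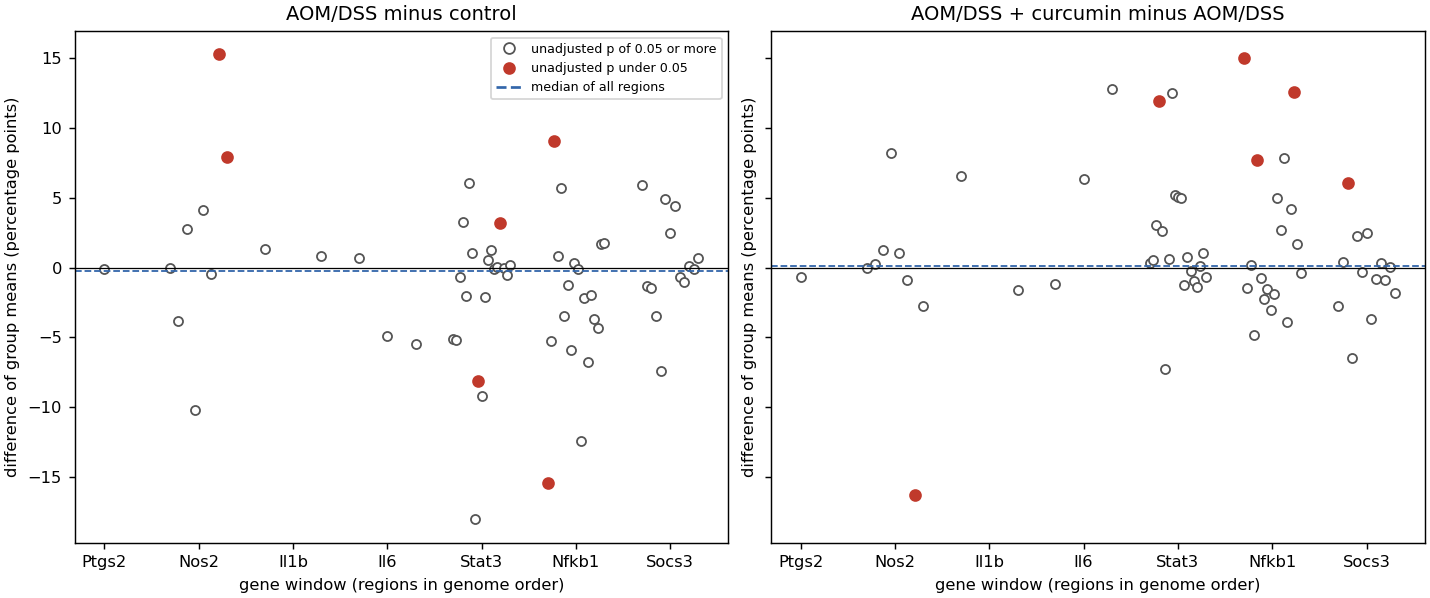
Difference of group means in percentage points (vertical axes) for each compared region of 7 genes, for AOM/DSS minus control (left) and AOM/DSS plus curcumin minus AOM/DSS (right); filled points have an unadjusted p under 0.05, none has an adjusted p under 0.05, and the dashed line is the median of all regions. The 22-CpG Nos2 region is the highest point on the left, at 15.3 points, and the lowest on the right, at -16.3 points.

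Next, animals given AOM and DSS were compared with and without curcumin. This comparison shares the AOM/DSS samples with the one above, so opposite signs in the 2 comparisons are not independent. No member was called (0 of 64, with 0% of all regions called), and 6 had an unadjusted p under 0.05 in edgeR, 5 of them higher and 1 lower with curcumin (9.38%, against 5.25% of all regions, 2.56% higher and 2.69% lower). With 10 points there were 4, 3 higher and 1 lower (6.25%, against 2% of all regions, 1.29% higher and 0.706% lower). Limma called 0 members and 0% of all regions, and Fisher's exact test called 1 member, at Nos2 (1.56%, against 0.998% of all regions). The count of 4 fell without AOM/DSS replicate 0 and without AOM/DSS plus curcumin replicate 0. The share of all regions in those fits was not counted.

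The region lower with curcumin was that of 22 CpGs at Nos2, with means of 6.36% ± 1.44 with curcumin and 22.7% ± 6.18 in AOM/DSS (SD, n = 2), a difference of -16.3 points. Here too the region was known before the genes were chosen, which limits the meaning of its p and rank. Its unadjusted p of 5.65e-06 was undercut by 2 of the 179922 regions, and its edgeR adjusted p was 0.302, ranging from 0.0597 to 1 over the alternatives. Its neighbour 3455 bases on, at 8.67% ± 0.471 with curcumin and 11.4% ± 3.66 in AOM/DSS, differed by -2.72 points, and there AOM/DSS replicate 0 lay among the curcumin samples.

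Of the 3 regions higher with curcumin, 2 lie in the Nfkb1 window. The one at its far end stood at 90.1% ± 3.90 with curcumin and 75.1% ± 5.96 in AOM/DSS (15.05 points; unadjusted p = 0.0162, edgeR adjusted p = 0.928), and the unadjusted p was 0.107 without AOM/DSS plus curcumin replicate 0 and 0.111 without AOM/DSS replicate 0. The other (135349428 to 135349534, 4 CpGs, 72 to 104 calls), in the first part of the gene, stood at 82.7% and 87.4% in control, 84.4% and 77.0% in AOM/DSS and 95.8% and 90.8% with curcumin, so that both curcumin samples were above all others (12.6 points over AOM/DSS; unadjusted p = 0.0129, edgeR adjusted p = 0.928). Its unadjusted p was 0.127 without AOM/DSS plus curcumin replicate 0 and 0.0875 without AOM/DSS replicate 1. On its side towards the gene start, 4952 bases away, lies the start region of 9 CpGs given above. On the other side, 35410 bases away, the region from 135313810 to 135314018 (8 CpGs) had 99.2% and 95.8% in control, 92.9% and 94.7% in AOM/DSS and 95.9% and 100% with curcumin, so that here too AOM/DSS was the lowest group.

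The third region lies at Stat3 (100753180 to 100753286, 5 CpGs) and was thinly covered, at 24 to 47 calls. It stood at 94.7% and 70.8% in control, 82.1% and 90.0% in AOM/DSS and 96.0% and 100% with curcumin, where the 2 curcumin samples were again the highest (11.97 points over AOM/DSS; unadjusted p = 0.0242, edgeR adjusted p = 0.928). Without AOM/DSS plus curcumin replicate 1 its unadjusted p was 0.269, and without AOM/DSS replicate 0 it was 0.117. The region 3032 bases before it (100749937 to 100750148, 9 CpGs) stood at 80.7% and 69.1% in control, 73.3% and 75.2% in AOM/DSS and 82.5% and 72.1% with curcumin. The region 132 bases after it (100753418 to 100753575, 4 CpGs) stood at 95.6% and 97.7% in control, 96.8% and 92.5% in AOM/DSS and 100% and 94.5% with curcumin. At both neighbours the groups with and without curcumin overlapped.

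The other 2 regions higher with curcumin at an unadjusted p under 0.05, also named after their values were seen, differed by under 10 points. One is the Nfkb1 region of 9 CpGs described under curcumin against control. The other lies at Socs3, after the gene (117824999 to 117825380, 19 CpGs, 243 to 301 calls), and stood at 7.004% and 6.58% in control, 5.32% and 5.32% in AOM/DSS and 12.96% and 9.81% with curcumin (unadjusted p = 0.0111, edgeR adjusted p = 0.928). Both of its curcumin samples lay above the other 4. The next region, 13 bases away (117824610 to 117824986, 31 CpGs), ran from 1.38% to 3.70% over the 6 samples.

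Averaged over its 3 regions, the Il6 window stood at 24.3% ± 0.720 in control, 21.1% ± 1.83 in AOM/DSS and 27.1% ± 1.54 with curcumin (SD, n = 2), so that both AOM/DSS samples were below the other 4. None of its 3 regions had an unadjusted p under 0.05 in either comparison. The Nfkb1 window averaged 76.4% ± 1.07 with curcumin and 74.4% ± 0.459 without, but with all calls pooled its difference was -1.33 in place of 2.05 points. The Stat3 window averaged 48.8% ± 0.851 and 46.8% ± 1.21, and in these averages the samples of the groups did not overlap at either window. With all calls pooled the Stat3 samples overlapped (35.2% and 30.0% with curcumin, 30.8% and 32.2% without), and the difference of 1.97 points was 1.06 points, while it was 0.806 points with 50 calls in each sample and 1.11 points without AOM/DSS replicate 0. Socs3 stood at 33.6% ± 0.255 with curcumin and 33.95% ± 0.155 in AOM/DSS. The median difference over the members was 0.228 points, and over all regions it was 0.111. Groups did not overlap at 23 members (35.9%, against 34.9% of all regions), 15 higher and 8 lower with curcumin (23.4% and 12.5%, against 18.9% and 16%).

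Setting AOM/DSS plus curcumin against control shares samples with both other comparisons. No member was called (0 of 64, with 0% of all regions called; 0 also with limma, with 0% of all regions, and with Fisher's exact test, with 0.355%), and 5 had an unadjusted p under 0.05 in edgeR, all 5 higher with curcumin (7.81%, against 4.17% of all regions, 1.83% higher and 2.34% lower). With 10 points there were 2 (3.13%, against 1.46% of all regions, 0.562% higher and 0.899% lower). This count rose without control replicate 0 and fell without control replicate 1 or AOM/DSS plus curcumin replicate 0. The share of all regions in those fits was not counted. Groups did not overlap at 24 members (37.5%, against 32% of all regions), 13 higher and 11 lower (20.3% and 17.2%, against 14.3% and 17.7%). The first was the Nfkb1 region from 135257790 to 135258095 (9 CpGs, 54 to 88 calls), with 87.3% and 79.6% in control, 84.1% and 94.3% in AOM/DSS and 98.5% and 95.4% with curcumin, a difference of 13.5 points (unadjusted p = 0.00488, edgeR adjusted p = 1). Both curcumin samples lay above the other 4. Without AOM/DSS plus curcumin replicate 0 its unadjusted p was 0.0646, and without control replicate 1 its difference was 9.60 points. Its neighbour 440 bases before (135257088 to 135257350, 8 CpGs) stood at 92.9% and 86.8% in control, 94.8% and 86.6% in AOM/DSS and 90.7% and 81.2% with curcumin. The one after it, 10602 bases away (135268697 to 135268772, 3 CpGs, 30 to 54 calls), stood at 96.7% and 94.9%, 90.9% and 93.8%, and 90.6% and 92.6%, in the same order. At neither neighbour was curcumin the highest group. The second was the thinly covered Stat3 region above, whose difference of 15.2 points was 3.26 points without control replicate 1 and 27.2 points without control replicate 0, and whose unadjusted p without AOM/DSS plus curcumin replicate 1 was 0.249. The Nos2 region of 22 CpGs differed by -1.01 points between curcumin and control (unadjusted p = 0.572). The remaining members under 0.05, named after their values were seen, differed by less than 10 points. In the Nos2 region from 78736368 to 78736721 the curcumin samples stood at 8.44% and 5.15% (edgeR unadjusted p = 0.0344). At the Nfkb1 region given above, 135248357 to 135248578, it was 0.0459. At both, AOM/DSS too lay above control. A Stat3 region (100792894 to 100793112, 9 CpGs) averaged 0.928% in control, 2.17% in AOM/DSS and 2.97% with curcumin (edgeR unadjusted p = 0.0405).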

How the data were processed

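Libraries were prepared with the Agilent SureSelectXT Mouse Methyl-Seq capture, per the labels' protocols. Bismark 0.15.0, ChIPseeker 1.10.3, R 3.4.0 and build mm9 are named in the submitters' processing notes; the sources used here do not say which step each served or how duplicate reads were treated. The deposited files hold counts per region and sample: the number of CpGs, of methylation calls and of methylated calls, of which the smallest number of calls given is 20 in every file, with blanks elsewhere. Calls of one read are not independent, so no intervals were drawn from them, and limits for 0 methylated calls (3 calls) cover counting error only.

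The 8 windows and the gene list were chosen with earlier results of these data known, the Nos2 region of 22 CpGs among them. Regions overlapping a window by any base were members. Values in every sample are given for members at an unadjusted p under 0.05 with 10 points, their neighbours, and per gene the lowest region and that with the largest difference between AOM/DSS and control. The pathway and marker lists could not be placed without an annotation of mm9 and were not analysed. Strands of Nos2, Il10 and Nfkb1 are from general knowledge.

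Regions needed 10 calls in each sample, which every region with 6 values had. edgeR 4.0.16 (R 4.3.3) fitted a coverage coefficient per sample and a methylation coefficient per group to all 6 samples. Data were also simulated for AOM/DSS against control (179922 regions). There 40-point changes were called at 13 of 100 regions and 20-point changes at 0 of 100 (74 at an unadjusted p under 0.05). No unchanged region was called. The starting levels, directions of change and numbers of calls behind these counts are not given, so the counts are not general rates. How often a gain would be called at regions of low methylation, such as those near the starts, was not tested. The same holds for the Nos2 region known beforehand. Limma 3.58.1 on log2 ratios, Fisher's exact test (scipy 1.17.1), fits without each sample, with the 4 samples compared, with a replicate term and other minimums were alternatives. No permutation test is given, since with 2 samples a group the smallest exact two-sided p is 0.333.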

Additional observations from a re-analysis of the deposited data

How the results depend on the processing

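With 20 points in place of 10, the edgeR counts at an unadjusted p under 0.05 were 0 in all 3 comparisons. With no minimum difference the count was 6 for AOM/DSS against control (9.38%, against 6.34% of all regions). For AOM/DSS plus curcumin against control it was 5 (7.81%, against 4.17% of all regions). For AOM/DSS against control, Fisher's exact test on summed calls gave 5 at the unadjusted threshold and 2 after adjustment (7.81% and 3.13% of members, against 6.17% and 2% of all regions), and after adjustment 1 for curcumin against AOM/DSS (1.56%, against 0.998%). With 50 calls in each sample, curcumin against control had a count of 1. Leaving out 1 sample at a time, the counts at an unadjusted p ran from 1 to 6 for AOM/DSS against control, from 2 to 4 for curcumin against AOM/DSS and from 1 to 5 for curcumin against control, and adjusted calls were 0 in each of these fits.

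The differences between replicate 0 and 1 correlated by 0.0548, 0.0121 and 0.00754 between the groups over all regions. These correlations are weak, but they cannot show whether samples of the same replicate number share a batch, which was not tested. With a replicate block 1 member was called for AOM/DSS against control, the 22-CpG Nos2 region (edgeR adjusted p = 0.0289; 0.0228% of all regions were called), and 0 in the other comparisons.

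The median difference over the members for AOM/DSS against control was -1.06 points as a mean over regions, -0.464 with calls pooled by group and -0.679 to -0.278 without single samples. For curcumin against AOM/DSS the median of 0.228 points was 1.29 as a mean, 0.0266 with calls pooled, 0.0626 with 50 calls in each sample, 0.0141 without AOM/DSS plus curcumin replicate 1 and 0.554 without AOM/DSS replicate 0, the ends of the range without single samples. For curcumin against control the median of -0.431 points was 0.229 as a mean, and -0.3896 to 0.241 without single samples. The cause of these shifts was not tested. Whether changes of a few points could be detected at 20 to 60 calls, as in the thinnest regions, was not tested.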
